A study of Homo sapiens with 4 samples.

Results

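The genes described here are the histone methyltransferases and demethylases of MDA-MB-231 Fluc cells. They were chosen by their symbols (KMT, KDM, SETD, SETDB, NSD, EZH, EHMT, SUV39H, PRDM, PRMT and SMYD genes with DOT1L and ASH1L). Of 13957 genes in the deposited table, 67 matched and 1 antisense gene with a hyphen in its symbol was left out, leaving 66. These comprised 49 writers, 16 erasers and 1 processed pseudogene of KMT5A. Writers add methyl groups or belong to a family that does, and erasers remove them or belong to a family that does.

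Methyl groups on the lysines and arginines of histones are laid down by writers that take them from S-adenosylmethionine. Most lysine writers carry a SET domain, DOT1L is an exception, and the PRMT enzymes act on arginine. Erasers fall into the FAD-dependent KDM1 enzymes and the JmjC enzymes, which need iron and 2-oxoglutarate. Methylation of histone H3 lysine 4 (H3K4) marks active promoters and enhancers, H3K36 and H3K79 methylation mark transcribed genes, and H3K9 and H3K27 methylation mark silenced chromatin.

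MDA-MB-231 is an established line of triple-negative breast cancer cells, and the Fluc derivative has an inserted luciferase gene. The samples were 2 of cells given cordycepin (3′ deoxyadenosine, an adenosine analogue) at 50 μM and 2 of cells given its vehicle DMSO, all taken after 2 h. The labels number the samples within each group and do not say whether they came from separate cultures. The deposited table gives 1 mean level per gene over both groups, so every level below mixes treated and control cells. It also holds the authors' own comparison of the groups, which was not used, and the effect of cordycepin on these genes was not analysed here. With no values per library, the depth is unknown, no SD can be given, and differences between genes were not tested.

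The level is the authors' mean log2 CPM (counts scaled by library size, on a log2 scale), which ranged from 0.56 to 13.43 over all genes. Long genes collect more reads, so genes were compared by a per-length level, which is log2 CPM less the log2 of the gene length in kb. Over all genes the median per-length level was 2.43 log2 CPM per kb, with a lower quartile of 0.94 and an upper quartile of 3.88. The 5 mesenchymal and basal markers VIM, CD44, AXL, CAV1 and MSN had per-length levels of 8.08, 7.25, 8.65, 8.30 and 7.10, all above the upper quartile. ESR1, PGR, PTPRC and PECAM1 were not analysed here, and COL1A1 had a per-length level of 0.19. Of the markers set down as low, CDH1 and EPCAM had 1.07 and 2.40, but GATA3, ERBB2 and KRT8 had 2.72, 3.13 and 6.33, above the median of all genes. KRT8 also lay above the upper quartile.

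As a group, the histone methylation genes were expressed at moderate levels. Their median per-length level was 2.04 log2 CPM per kb, with a range from -1.89 to 5.86. Of the 66 genes, 26 (39.4%) lay above the median of all genes, 11 lay above the upper quartile and 15 lay below the lower quartile. The writers had a median per-length level of 2.07, and 20 of 49 (40.8%) lay above the median of all genes. The erasers had a median of 1.54, and 5 of 16 (31.2%) lay above it. Writers were thus higher than erasers by 0.53 at the median on the log2 scale. Without the length correction the difference was 0.15, and 67.3% of writers and 62.5% of erasers lay above the median of all genes. The ranges of writers and erasers overlapped over nearly their whole extent. With the authors' gene length the erasers left a gap, with no gene between KDM6A at a per-length level of 1.67 and KDM1B at 3.17. This gap depended on the length used. With the longest transcript as length, KDM1B at 3.48 was followed by KDM4B at 2.92, KDM2B at 2.64 and KDM5B at 1.87.

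**Figure D1:**
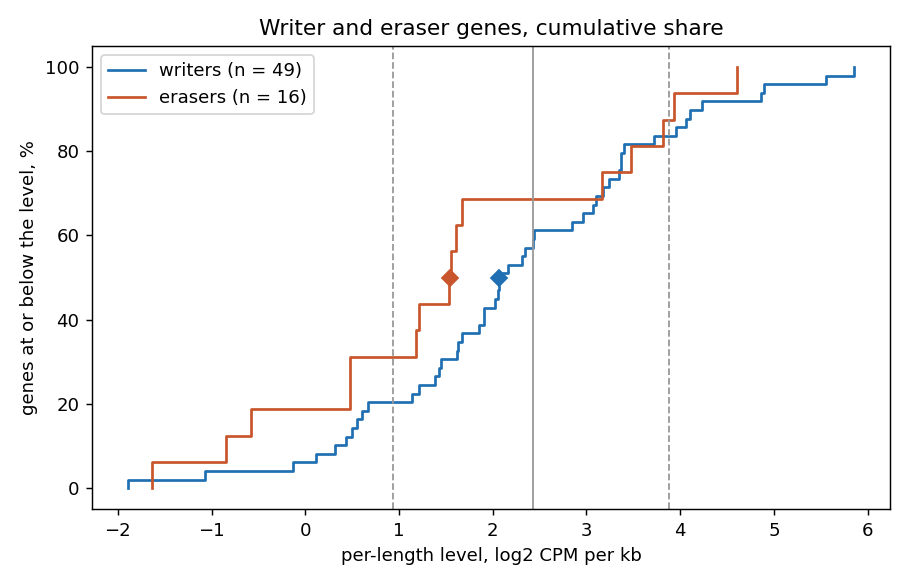
Cumulative share of writer (n = 49) and eraser (n = 16) genes, in percent, against the per-length level in log2 CPM per kb. Diamonds mark the medians (2.07 and 1.54), the solid grey line the median of all genes (2.43) and the dashed lines their quartiles. Levels use the authors' gene length. With it, the eraser curve is flat between KDM6A at 1.67 and KDM1B at 3.17 while the writer curve climbs. Above 3.17 both run close together.

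The difference between writers and erasers depended on which writers were counted. The 8 PRDM genes, most of them DNA-binding factors, had a median per-length level of 0.58, and 1 of them, PRDM4, lay above the median of all genes. The 7 PRMT genes had a median of 3.41. Without the PRDM genes, 41 writers had a median of 2.35, which is 0.80 above the erasers. Without the PRMT genes as well, the 34 writers left had 2.33, which is 0.79 above the erasers. These 34 are called lysine writers here, although they leave out PRDM2, an H3K9 writer. They also keep SETD3, which methylates actin, and KMT2E and SETD5, whose own activity on H3K4 is in doubt. Among erasers, the 14 JmjC genes had a median of 1.37, compared with 3.89 for the pair of FAD-dependent genes. Per length, lysine writers were thus near the median of all genes and JmjC erasers below it. In log2 CPM without the length correction both were above it, at medians of 5.84 and 4.86 against 4.58 over all genes.

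**Figure D2:**
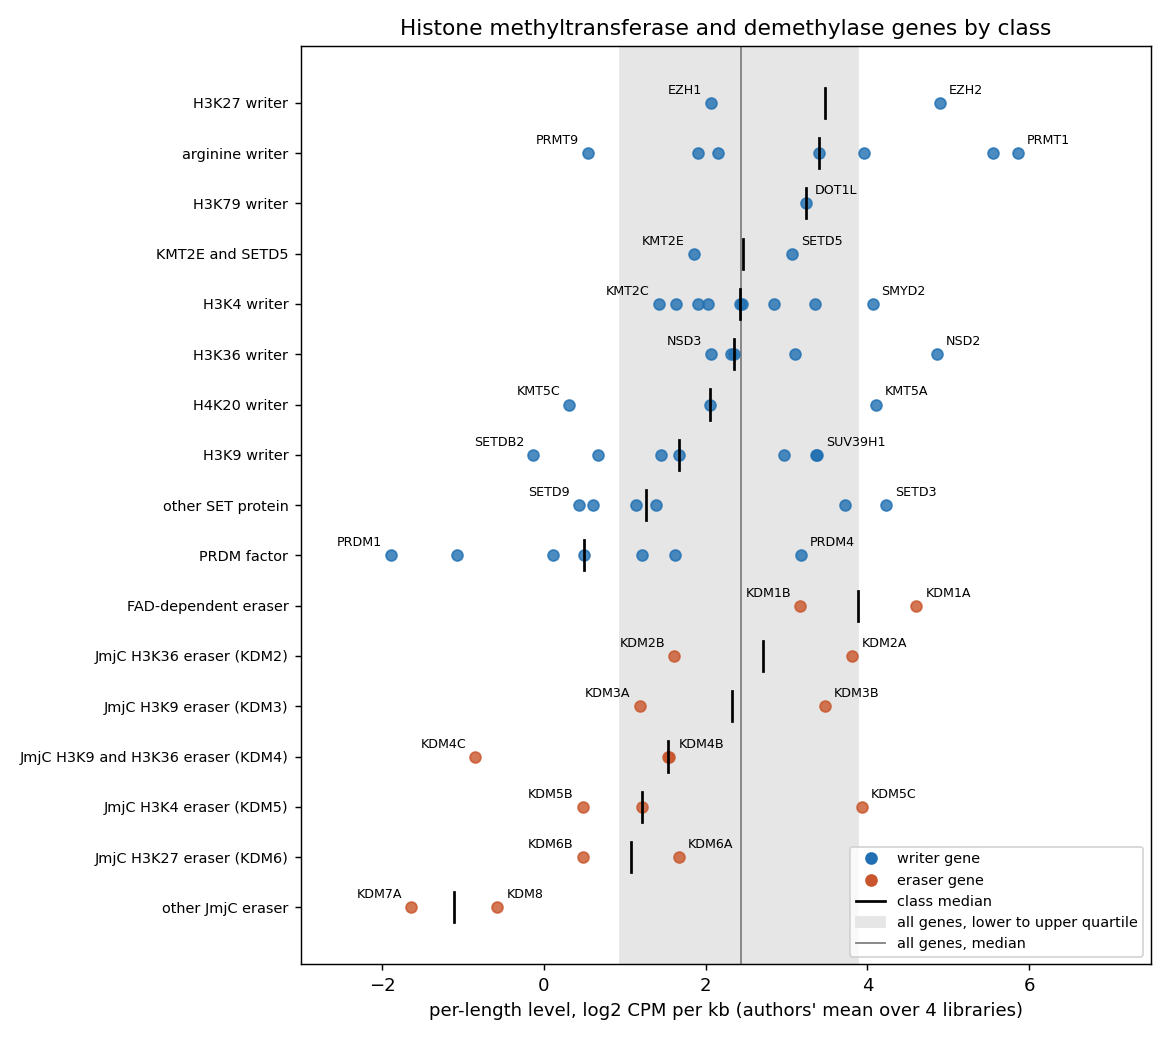
Per-length level in log2 CPM per kb (authors' mean over 4 libraries) of every writer (blue) and eraser (orange), 1 row per class, with class medians as black bars and the lowest and highest gene named. The grey band spans the quartiles of all genes (0.94 to 3.88). PRMT1 at 5.86 is the highest gene, and PRDM1 at -1.89 the lowest.

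With the authors' gene length, the highest writers were the arginine methyltransferases PRMT1 and PRMT5. PRMT1 (ENSG00000126457, chromosome 19, 49675786 to 49689029, GRCh38) makes asymmetric dimethylarginine and had a per-length level of 5.86, higher than that of 93.6% of all genes. PRMT5 (chromosome 14, 22920525 to 22929408), which makes symmetric dimethylarginine, had a per-length level of 5.56. With the longest transcript as length, PRMT1 remained first at 7.37, and NSD2 at 6.07 came before PRMT5 at 5.99. The remaining arginine writers among the members were lower. PRMT2 had a per-length level of 3.96, PRMT3 3.41, PRMT6 2.16, PRMT7 1.91 and PRMT9 0.55. The 4 genes for PRMT5 partners in the table had per-length levels from 3.74 for RIOK1 to 5.70 for COPRS, all above the median of all genes.

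EZH2 (chromosome 7, 148807383 to 148884321), the H3K27 methyltransferase of Polycomb repressive complex 2, had a per-length level of 4.90. Its relative EZH1 had 2.06, which is lower than EZH2 by 2.84 on the log2 scale. With the GENCODE exon length EZH2 had 3.65, and EZH1 was lower by 1.58. Of the 9 genes for other subunits of that complex, 6 lay above the median of all genes, from MTF2 at a per-length level of 1.77 to RBBP7 at 5.62. The H3K27 erasers were lower than EZH2, with per-length levels of 1.67 for KDM6A and 0.48 for KDM6B.

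Among H3K36 writers, NSD2 stood apart. NSD2 (chromosome 4, 1871393 to 1982207) had the highest log2 CPM of all writers, at 9.17, and a per-length level of 4.86. NSD1 and NSD3, its closest relatives, had per-length levels of 2.31 and 2.07. SETD2, which makes H3K36 trimethylation, had a per-length level of 3.10, and ASH1L had 2.35. The H3K36 erasers KDM2A and KDM2B, which bind unmethylated CpG DNA, had per-length levels of 3.81 and 1.61.

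The 9 H3K4 writers held the middle, with a median per-length level of 2.43. With the authors' gene length SMYD2 was the highest of them, at 4.06, followed by SETD7 at 3.35. With the longest transcript SETD7 was above SMYD2, at 4.38 against 4.11, and in log2 CPM it had 7.15 against 6.35. SETD7 was also higher with the coding length, but lower with the GENCODE exon length. Both enzymes also methylate proteins other than histones. The large MLL-type enzymes had per-length levels of 2.85 for KMT2B, 1.90 for KMT2D, 1.63 for KMT2A and 1.42 for KMT2C. SETD1A and SETD1B had per-length levels of 2.45 and 2.02, and SMYD3 had 2.43. KMT2E and SETD5, relatives whose own activity on H3K4 is in doubt, had 1.85 and 3.07. The genes for shared subunits and partners had a median per-length level of 3.20, with 10 of 12 above the median of all genes and WDR5, a core subunit, highest at 5.42. PAGR1 was the lowest partner, at 0.89.

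The H3K4 erasers were divided. KDM5C (chromosome X, 53191321 to 53225422) had a per-length level of 3.93, whereas KDM5A had 1.21 and KDM5B had 0.48. KDM5B had 5.12 in log2 CPM, above the median of all genes at 4.58, and its low per-length level follows from a listed gene length of 24899 bases. KDM1A (chromosome 1, 23019443 to 23083689), also known as LSD1, was the highest eraser with the authors' gene length, at a per-length level of 4.61, and its relative KDM1B had 3.17. With the GENCODE exon length KDM1A had 2.85, below KDM2A, KDM3B, KDM5C and KDM1B, and KDM2A was highest at 3.81. The 8 genes for LSD1 partners that were analysed ranged from PHF21A at a per-length level of -0.22 to HDAC1 at 5.68.

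H3K9 methylation had writers on both sides of the median of all genes. SUV39H1 and EHMT2 both had a per-length level of 3.37, and SUV39H2 had 2.96. SETDB1, EHMT1, PRDM2 and SETDB2 were lower, with per-length levels of 1.67, 1.45, 0.67 and -0.13. The place of EHMT1 depended on its listed gene length of 22188 bases. It had 5.93 in log2 CPM, above the median of all genes at 4.58, and 2.95 with the longest transcript as length. With that length EHMT1 was the median H3K9 writer, 0.11 above the median of all genes computed in the same way. The 8 genes for readers and silencing partners had a median per-length level of 3.31, with TRIM28 highest at 7.61 and ATF7IP lowest at 1.80, and 6 of them lay above the median of all genes. Among H3K9 erasers, KDM3B had a per-length level of 3.48 and KDM3A 1.18. The KDM4 genes, which act on H3K9 and H3K36, had per-length levels of 1.55 for KDM4B, 1.54 for KDM4A and -0.85 for KDM4C.

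KMT5A (chromosome 12, 123383773 to 123409353), which makes H4K20 monomethylation, had a per-length level of 4.11. KMT5B and KMT5C, which extend that mark, had 2.06 and 0.31. The KMT5A pseudogene KMT5AP1 on chromosome 13 was listed at a per-length level of 4.05, and as it resembles KMT5A in sequence, how reads were divided between them is uncertain. DOT1L, the H3K79 methyltransferase, had a per-length level of 3.24. Of its 6 partner genes 3 lay above the median of all genes, from MLLT3 at 0.13 to MLLT1 at 5.06.

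The remaining SET proteins had a median per-length level of 1.26. SETD3, which methylates actin, had 4.23, and SMYD5 had 3.72. SMYD4, SETD4, SETD6 and SETD9 had per-length levels of 1.38, 1.14, 0.61 and 0.44. The lowest members of all were PRDM1, a repressor of B-cell genes, at -1.89, KDM7A at -1.64, PRDM11 at -1.07, KDM4C at -0.85 and KDM8 at -0.57. PRDM15, PRDM10 and PRDM8 had per-length levels of 0.11, 1.21 and 1.62, and PRDM4 had 3.18. PRDM1 had 0.87 in log2 CPM, close to the lowest value in the table at 0.56.

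Related genes were then compared within the 14 families whose symbols share a stem, such as KMT2 or NSD, which gave 31 pairs, each named with the higher gene first. This set of pairs was chosen after the values were seen. In 18 of them the genes were apart by more than 1 on the log2 scale, in 11 by more than 2 and in 10 by less than 0.5. The widest was KMT5A less KMT5C, at 3.79, followed by KDM5C less KDM5B, at 3.45. The closest was KDM4B less KDM4A, at 0.01, which was 1.17 with the longest transcript. In 21 pairs the first gene stayed higher with each of 3 other lengths and without a length correction, and these included all 11 that were apart by more than 2. The order of the other 10 depended on the length. KDM1A and KDM6A fell below KDM1B and KDM6B with the exon length of GENCODE release 44, at -0.31 and -0.71. KDM5A fell below KDM5B with the longest transcript, at -0.50, and 6 of the 10 were pairs of KMT2 genes.

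**Figure D3:**
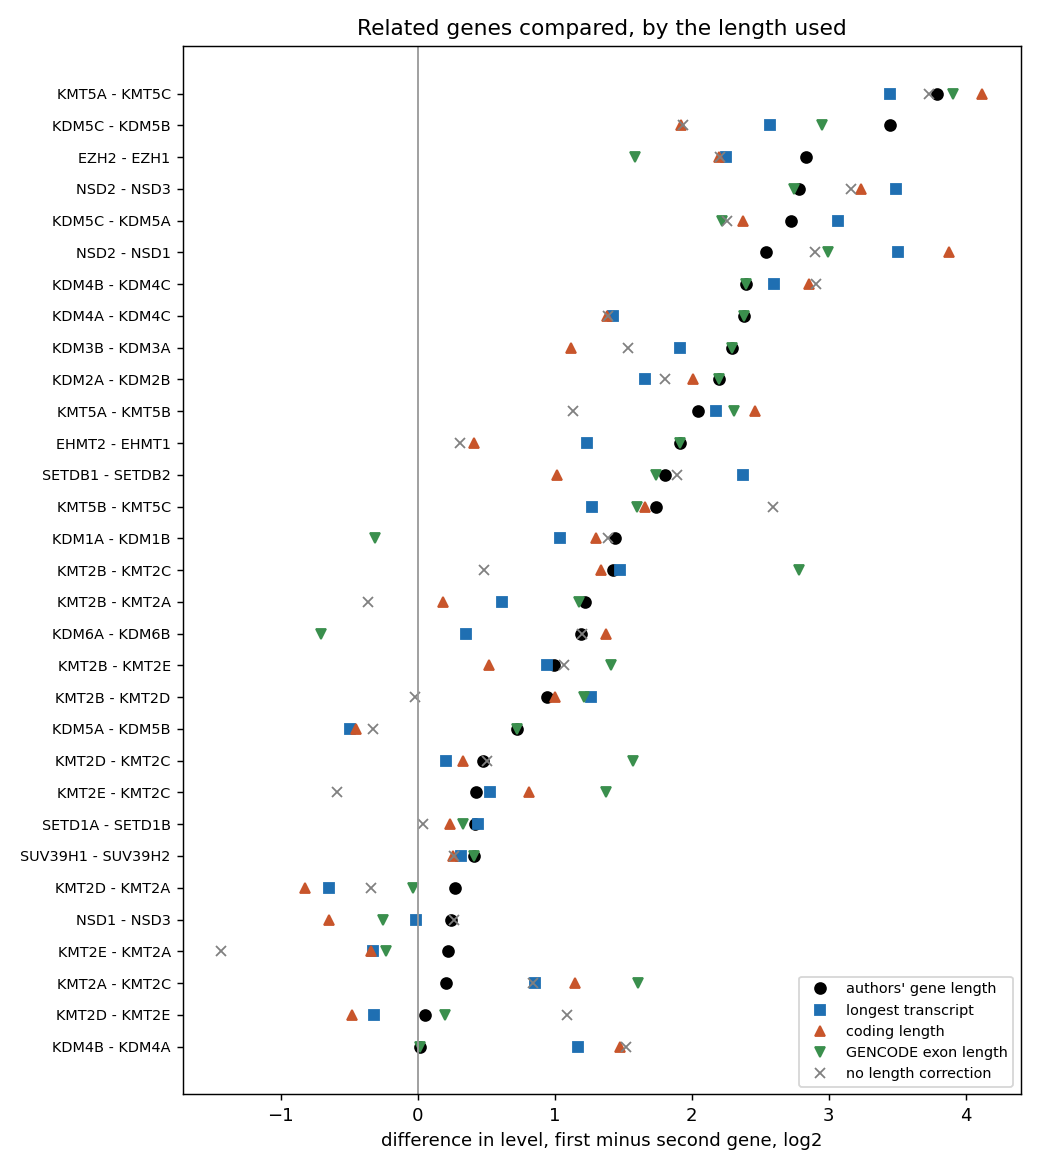
Difference in level on the log2 scale between related genes, first minus second, for 31 pairs, with the authors' gene length (black circles), 3 other lengths (coloured symbols) and no length correction (grey crosses). Symbols left of 0 appear in 10 pairs, whose order depends on the length, and in none of the 11 pairs that the black circles put apart by more than 2.

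These genes were long, which the symbol rule did not use. The median gene length of the 66 members, exons only, was 7460 bases, compared with 4839 over all genes and 5341 over protein-coding genes. Their median coding length was 3168 bases against 1428 in protein-coding genes, and the canonical transcript had a median of 20 exons against 9. Erasers were longer than writers in median gene length, at 9052.5 against 7289 bases, and in coding length, at 3725 against 2412 bases. Erasers had 23 exons against 16. These differences were smaller for lysine writers without PRDM and PRMT genes, at 7525.5 bases, 3142.5 coding bases and 19.5 exons. Across the 66 genes, Spearman's rho of log2 CPM with gene length was 0.23, and it was also 0.23 across all genes. The per-length level has gene length subtracted, so its rho with gene length is pulled down by construction. This rho was -0.25 across the 66 genes and -0.29 across all genes. Genes are not independent replicates and share the 4 libraries, so these are descriptions.

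**Figure D4:**
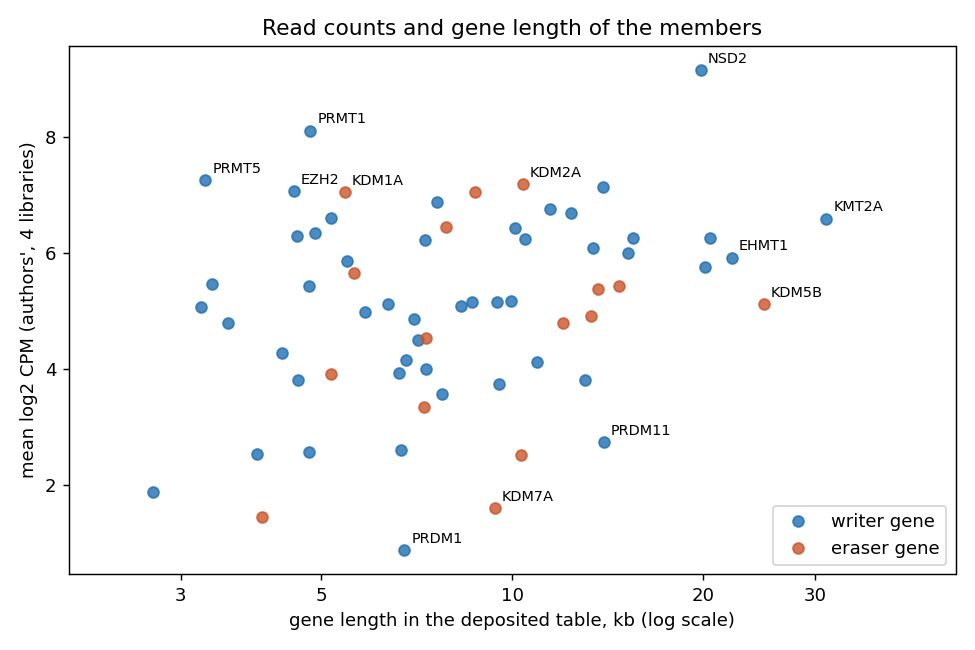
Mean log2 CPM (authors', 4 libraries) against the gene length in kb on a log scale, for 49 writers (blue) and 16 erasers (orange). NSD2 combines the highest log2 CPM (9.17) with a long gene, while KMT2A, the longest gene at 31279 bases, has 6.60.

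Promoters from RefSeq (GRCh38.p14, 250 bases before and 50 after 1 start site per gene) were found for 61 of the 66 genes. They held a median of 30 CpG pairs, compared with 27 in the promoters of genes in the table and 14 in all promoters. The GC box GGGCGG was found on either strand in 75.4% of them, compared with 71.1% of genes in the table and 45.0% of all promoters. The sequence CCAAT was found in 34.4%, 37.1% and 34.6%, and TATAAA in 1.64%, 5.25% and 11.5%, in the same order and on either strand. Spearman's rho of the number of CpG pairs with the per-length level was 0.15 across the 61 genes and 0.14 across 9766 genes in the table. The last 30 bases before the start site are shown for the highest and lowest writer and eraser, 5′ to 3′ along the gene, with CpG pairs in capitals.
PRMT1, chr19:49677241-49677270, plus strand: ggggtcttggCGgcCGgaggaggagtaggt
KDM1A, chr1:23019438-23019467, plus strand: tttttgtccCGgCGCGgCGggagCGCGctt
PRDM1, chr6:106086306-106086335, plus strand: tcttaagcagggaggggaagccagaCGgtt
KDM7A, chr7:140176984-140177013, minus strand: gCGgCGctggctggCGgctgCGctCGctcc

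The full promoters held 22 CpG pairs for PRMT1, 36 for KDM1A, 14 for PRDM1 and 56 for KDM7A. KDM7A thus combined one of the promoters richest in CpG with the lowest level of the erasers. None of these promoters held TATAAA, and GGGCGG was found in those of PRMT1, KDM1A and KDM7A. The start site taken for PRDM1 lay inside the listed gene, which begins at 105993463, and that for PRMT1 also lay inside its gene. Which start sites these cells use was not analysed here.

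The 7 listed genes for enzymes of methyl donor and 2-oxoglutarate metabolism were all above the median of all genes. AHCY, which clears S-adenosylhomocysteine, had a per-length level of 6.09, and MAT2A, which makes S-adenosylmethionine, had 5.85. MTR was the lowest of the 7 at 2.46, close to the median of all genes at 2.43. Related enzymes whose names fall outside the symbol rule had 10 genes analysed, with CARM1 highest at a per-length level of 4.77 and HSPBAP1 lowest at -0.07.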

How the data were processed

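The data were RNA-seq of 2 cordycepin and 2 DMSO samples of MDA-MB-231 Fluc cells. Stranded libraries depleted of ribosomal RNA were read by the authors as paired ends of 75 bases, and mapping to GRCh38.p13 and counting were done with rsubread. The submitters' processing notes name TopHat, HTSeq, DESeq and Cufflinks instead, and the tool behind the deposited table is not given in the sources used here. The authors' deposited mean log2 CPM, 1 value per gene over all libraries, and the gene length in the same table were used. Its 4 columns of the authors' own comparison (log2 fold change, F statistic, p-value, adjusted p-value) were not used, so no treatment effect is given. The table holds 0 columns of values per sample, and its filter on low counts is not stated.

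The per-length level was computed as log2 CPM less log2(length / 1000 bases). GENCODE release 44 gave other lengths, exon numbers and gene types for 13922 gene IDs (99.7%). Members and lists were chosen with earlier results of these data known. Genes were named as the 5 highest and 5 lowest writers and erasers, the ends of each class and partner list, and all markers; the rest were named after their values were seen. Protein sequences were not used here, and the value of 1 gene counted among the members is not reported here. The code for group medians and shares was checked on simulated levels with known shifts put in, which does not test the length correction. Calculations used matplotlib 3.10.9, scipy 1.17.1, pandas 2.3.3 and numpy 2.4.6 under Python 3.11.15.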

Additional observations from a re-analysis of the deposited data

How the results depend on the processing

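Writers were higher than erasers at the median in the 7 alternatives that could change the difference, by 0.15 to 0.82 on the log2 scale. The difference was 0.82 with the longest transcript, 0.15 without a length correction, 0.74 without the lowest 25% of genes (where 39.5% of writers and 38.5% of erasers were above the median of all genes left), 0.80 without PRDM genes and 0.79 with lysine writers only. It was 0.69 with the coding length and 0.69 with the GENCODE exon length, both chosen after seeing the data. Without a length correction, 67.3% of writers, 62.5% of erasers and 11 of 16 classes with at least 2 genes were above the median of all genes, against 40.8%, 31.2% and 5. There the medians of H3K36, H3K4, H3K9 and H4K20 writers and of KDM5 and KDM3 erasers moved above that of all genes, by 1.69, 1.66, 0.22, 0.59, 0.54 and 1.11, and with the longest transcript that of H3K9 writers did, by 0.11. No paired analysis was possible because the deposited values are means over every library, and for the same reason no replicate could be left out and the error of a single gene is unknown.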
